A study of Homo sapiens with 3 samples.

Results

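Retinoic acid receptors, their binding proteins and the enzymes that break retinoic acid down were examined as a set of 10 genes, RARA, RARB, RARG, RXRA, RXRB, RXRG, CRABP1, CRABP2, CYP26A1 and CYP26B1, chosen by name as a pathway. Their expression was read from every probe set that names 1 of them alone, which gave 23 probe sets for 9 of the 10 genes, out of 41091 probe sets and 19775 genes in all. CRABP1 was not analysed here, since no probe set carries its name in the array annotation used. RNA had been hybridized to Affymetrix U133 Plus 2.0 arrays from 3 samples, with 1 array each. They were the untreated neuroblastoma cell lines NGP, grown in RPMI medium, and IMR-32, grown in Minimum Essential Medium, both with fetal bovine serum, and a reference pool of 16 untreated cancer cell lines labelled as mixed in cell type. The lines of the pool are not named in the sources used here, and each neuroblastoma line is 1 culture, so cell line and growth medium cannot be told apart.

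Retinoic acid is made from retinol (vitamin A) through retinal. In the cell it is carried by the cellular retinoic acid-binding proteins CRABP1 and CRABP2 and binds the RAR receptors, which sit on DNA as heterodimers with the RXR receptors and switch from repression to activation of their targets when retinoic acid is bound. The CYP26 enzymes hydroxylate and so inactivate it. Retinoic acid drives neuroblastoma cells to stop dividing and to extend neurites, and isotretinoin is used in the treatment of high-risk neuroblastoma.

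Values are MAS5 signal intensities as deposited, on a linear scale, and ratios are log2 ratios without a pseudocount. The value of a gene is the median ratio over its probe sets. Overexpressed means among the 7% of genes with the highest values of a comparison, and underexpressed among the 7% with the lowest. The cut-offs were 1.84 and -2.88 in NGP over the pool, 1.68 and -2.83 in IMR-32 over the pool, and 1.95 and -1.84 when NGP was divided by IMR-32. By this rule the share of all genes called is 7% in each direction of each comparison. The median over all genes was -0.22 for NGP over the pool, -0.23 for IMR-32 over the pool and 0.02 for NGP over IMR-32. Division of each array by its own median moved these to 0.12, 0.18 and -0.05, so ratios close to 0 have no firm direction. The ratios of probe sets for the same gene varied with a standard deviation of 1.41 for NGP over the pool, 1.31 for IMR-32 over the pool and 1.28 for NGP over IMR-32. Among probe sets that were not dim, these were 1.09, 0.97 and 0.86, where dim means that the higher signal of the compared pair was below the median of its array (98.8 in NGP, 89.9 in IMR-32 and 119 in the pool). Each sample was measured once, so no difference could be set against replicates and no test was made. The spread between probe sets is given in place of an error. It is that of single probe sets on the same arrays, so variation between cultures or hybridizations is not measured by it.

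The labelled cell type was checked first. Of 14 measured sympathetic neuroblast markers, 12 were overexpressed in NGP and 8 in IMR-32, and 0 were underexpressed in either line. All 14 had ratios above 0 in NGP, but only 9 did in IMR-32. Those below 0 in IMR-32 were TFAP2B (-1.76), TH (-1.40), GATA2 (-1.34), DBH (-0.33) and CHGB (-0.01). The summed signal of 10 epithelial markers, by the brightest probe set of each, was 554 in NGP and 494 in IMR-32, against 72280 in the pool, and 9 of the 10 were underexpressed in each line. Of 11 haematopoietic markers 0 were overexpressed in either line, and 2 were underexpressed in NGP and 3 in IMR-32. Of 12 mesenchymal markers 1 was overexpressed and 4 were underexpressed in NGP, and 2 and 3 in IMR-32, the overexpressed ones being TWIST1 in both lines (2.81 in NGP and 2.44 in IMR-32) and THY1 in IMR-32 (1.72). Of 6 melanocytic markers 1 was overexpressed in NGP (PMEL, 2.30) and 1 underexpressed in IMR-32.

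The retinoic acid genes past a cut-off were counted in each comparison and set beside the share over all genes. Of all genes, 42.3% had ratios above 0 in NGP and 41.6% in IMR-32, so that most genes of any kind were below 0. In NGP all 9 measured genes had ratios below 0, although RARA, RARG and RXRB changed sign under some other ways of processing, and 0 passed a cut-off in either direction, where 7% of all genes do so at each end. In IMR-32, 7 of 9 were below 0, with CRABP2 and CYP26A1 underexpressed (2 of 9, against 7% of all genes) and the retinoid X receptor gene RXRG overexpressed (1 of 9, against 7%). Set directly against IMR-32, NGP had CRABP2 and CYP26A1 overexpressed (2 of 9, against 7% of all genes) and RXRG underexpressed (1 of 9, against 7%). The median over the 9 genes was -1.06 for NGP over the pool, -0.999 for IMR-32 over the pool and -0.61 for NGP over IMR-32. The pool array held the highest signal for 15 of the 23 probe sets, NGP for 4 and IMR-32 for 4. NGP held the lowest for 13, IMR-32 for 8 and the pool for 2. Signals were at or above the array median for 9 of the 23 probe sets in NGP, 12 in IMR-32 and 16 in the pool.

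**Figure D1:**
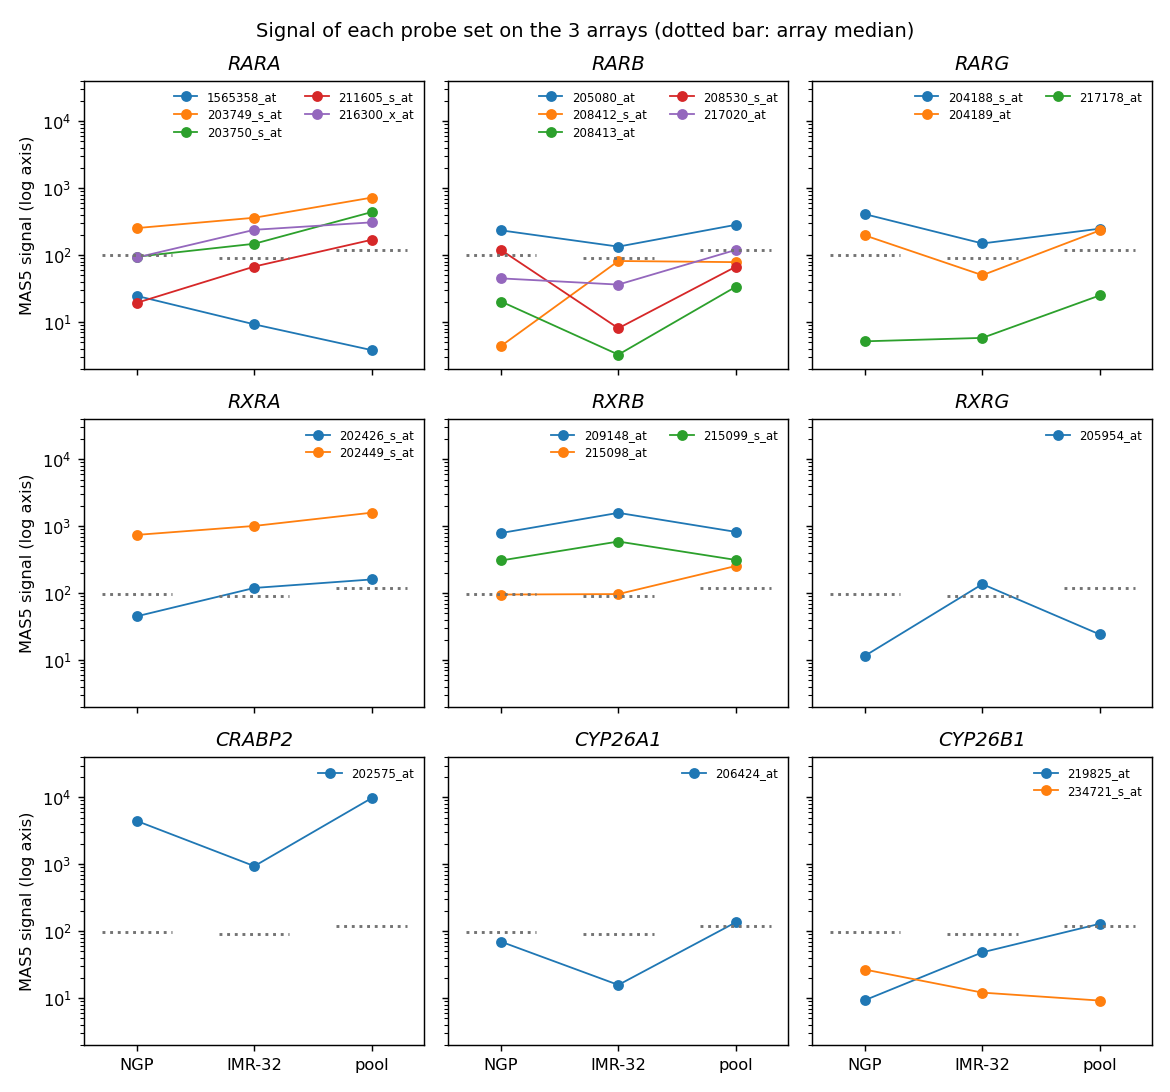
MAS5 signal (y-axis, log scale) of each probe set of the 9 measured genes in NGP, IMR-32 and the reference pool (x-axis), with lines joining the values of 1 probe set and dotted bars at the median of each array. CRABP2 lies far above the array median in all 3 samples, with 4439 in NGP, 940.4 in IMR-32 and 9762 in the pool, while RXRG lies above it in IMR-32 alone.

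Retinoic acid induces its own breakdown and one of its own receptors. The response elements through which it does so are direct repeats of a hexamer spaced by 5 bases, called DR5, and they are shown here because RARB and CYP26A1 are the textbook targets of that kind. A match is a description of the sequence, and no binding was measured. The hexamer AGGTCA, its variant AGTTCA and the versions that begin with G, which are GGGTCA as well as GGTTCA, were searched in all pairings of this kind, on both strands, in RefSeq promoter windows of 300 bases (GRCh38.p14, 250 bases before the start and 50 after it). All 10 genes had such windows, 18 in number, and RARB and CYP26A1 alone among the 10 genes held a DR5 repeat in one of theirs. Of all 35116 promoter windows, 31 (0.0883%) held one. The same hexamers spaced by 1 base (DR1) were found in 46 windows (0.131%) and spaced by 2 bases (DR2) in 14 (0.0399%), and in 0 of the 18 windows of these genes. The RARB window is 1 of 4 for that gene and lies at chr3:25428013-25428312 on the plus strand, with the hexamers of the repeat in capitals, at -53 to -37 from the start. The CYP26A1 window is 1 of 2 for that gene and lies at chr10:93073643-93073942 on the plus strand. Its repeat, at -90 to -74, runs on the opposite strand, so that the capitals show its reverse complement.
RARB promoter: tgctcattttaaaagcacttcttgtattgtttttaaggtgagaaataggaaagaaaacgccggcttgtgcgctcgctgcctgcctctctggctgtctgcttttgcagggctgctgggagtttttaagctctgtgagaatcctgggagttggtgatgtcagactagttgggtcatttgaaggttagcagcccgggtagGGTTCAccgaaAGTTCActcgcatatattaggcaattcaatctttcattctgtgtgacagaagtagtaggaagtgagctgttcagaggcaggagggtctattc
CYP26A1 promoter: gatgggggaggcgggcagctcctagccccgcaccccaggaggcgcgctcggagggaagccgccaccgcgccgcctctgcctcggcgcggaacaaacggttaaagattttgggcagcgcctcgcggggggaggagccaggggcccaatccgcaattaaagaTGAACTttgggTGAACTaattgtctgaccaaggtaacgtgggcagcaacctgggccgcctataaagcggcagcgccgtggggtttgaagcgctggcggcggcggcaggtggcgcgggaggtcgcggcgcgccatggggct

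Read along the strand of the repeat, the sites of both genes were alike at 15 of 17 bases. Counted from 1 at the 5′ end of the repeat, the differences from RARB to CYP26A1 were G1A in the first hexamer and G9C in the spacer.
RARB repeat: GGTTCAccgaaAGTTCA
CYP26A1 repeat: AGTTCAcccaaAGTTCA

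CYP26A1, the principal hydroxylase that clears retinoic acid, had 1 probe set, with a signal of 69.7 in NGP and 15.8 in IMR-32, against 136 in the pool. Only the pool signal was above its array median, so the low end of each ratio rests on dim signals. The log2 ratio was -0.96 in NGP and -3.10 in IMR-32 (8.60-fold lower). The IMR-32 value was past the cut-off of -2.83, and 5.69% of all genes had a lower ratio in IMR-32. The call was lost with dim probe sets left out (cut-off -3.14) and with the top and bottom 5% (-3.28). NGP over IMR-32 was 2.14 (4.42-fold), from signals that were dim in both lines. Probe sets varied by 1.28 over all and by 0.86 among those not dim, so 1.28 may understate the spread of dim ones. With 32 added to the signals, NGP over IMR-32 was 1.09. The gene spans 93073475 to 93077885 on chromosome 10 (GRCh38.p14).

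CYP26B1, a related hydroxylase, gave no single direction. Of its 2 probe sets, 219825_at had a signal of 9.35 in NGP and 48.4 in IMR-32, against 129 in the pool, which is a log2 ratio of -3.79 in NGP and -1.42 in IMR-32. The other, 234721_s_at, had a signal of 26.7 in NGP and 12.1 in IMR-32, against 9.20 in the pool, which is a ratio of 1.54 in NGP and 0.39 in IMR-32. The probe sets thus ran in opposite directions, and the second was dim on all 3 arrays. Their medians were -1.13 in NGP and -0.51 in IMR-32, between the cut-offs. By 219825_at alone, the probe set that was not dim in the pool, CYP26B1 was underexpressed in NGP. That probe set passed through its pool signal alone (129, against an array median of 119), so the choice itself favours a low ratio. The gene lies on chromosome 2 (72129238 to 72147862, GRCh38.p14).

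CRABP2, which carries retinoic acid to the RAR receptors in the nucleus, was bright on all 3 arrays and differed between the lines. Its 1 probe set had a signal of 4439 in NGP and 940.4 in IMR-32, against 9762 in the pool, each far above the array median. The log2 ratio of NGP over the pool was -1.14 (2.20-fold lower). In size this is less than the standard deviation between all probe sets (1.41) and slightly more than that of probe sets that were not dim (1.09). IMR-32 was at -3.38 (10.4-fold lower), underexpressed, with 4.70% of all genes at a lower ratio. NGP exceeded IMR-32 by 2.24 (4.72-fold), past the cut-off of 1.95 and larger than the standard deviation between probe sets of 1.28. The values for IMR-32 over the pool ran from -3.46 to -2.96 over 7 other ways of processing the signals, and those for NGP over IMR-32 from 2.17 to 2.27. The pool also held the epithelial marker signal given above, whose part in the distance from the pool was not tested. The comparison of NGP with IMR-32 does not involve the pool. By Euclidean distance over the ratios of both lines to the pool, the genes most like CRABP2 among 13640 genes that were not dim were GP6 (distance 0.051), ZDHHC23 (0.060) and SPTSSB (0.10), over 3 samples. With so few samples 64 genes lay within 0.5 of it.

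The 3 RAR genes, which encode the receptors that bind all-trans retinoic acid, were lower than in the pool by their gene values, with no firm sign for RARG in NGP, and 0 of the 3 passed a cut-off in any comparison. In NGP over IMR-32, RARB and RARG passed it under other ways of processing, given with each gene. Their order between the lines differed by gene.

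RARA, the most widely expressed RAR, had 5 probe sets. Its brightest, 203749_s_at, had a signal of 254 in NGP and 362 in IMR-32, against 723 in the pool. In 4 of the 5 probe sets the order was the same, with NGP lowest and the pool highest. The exception was 1565358_at, at 24.5 in NGP and 9.23 in IMR-32, against 3.81 in the pool, where all 3 signals were far below the array medians. The gene value was -1.74 in NGP (3.34-fold lower) and -0.999 in IMR-32 (2.00-fold lower), and NGP over IMR-32 was -0.64, less than the standard deviation between probe sets. RARA lies on chromosome 17 (40309180 to 40357643, GRCh38.p14). With _s_at and _x_at probe sets left out, only the dim 1565358_at stays, and the NGP value becomes 2.69.

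RARB, the RAR that retinoic acid itself induces and whose promoter is printed above, had probe sets that differed widely. The brightest of 5, 205080_at, had a signal of 235 in NGP and 134 in IMR-32, against 284 in the pool. In 208530_s_at NGP stood above both other samples, with 119 in NGP and 8.07 in IMR-32, against 66.9 in the pool. In 208412_s_at it was far below them, with 4.38 in NGP and 81.7 in IMR-32, against 78.6 in the pool. Over the probe sets the ratio ran from -4.16 to 0.83 in NGP and from -3.36 to 0.06 in IMR-32, with gene values of -0.73 in NGP and -1.72 in IMR-32. NGP over IMR-32 had a median of 0.81, within a range from -4.22 to 3.88. The lowest value of this range came from 208412_s_at, which was dim in both lines. The probe sets that were not dim, 205080_at (0.81) and 208530_s_at (3.88), were both higher in NGP, as were 4 of all 5. However, 208530_s_at counted as not dim by its NGP signal alone. The agreement of the kept probe sets is thus partly set by that rule and is no separate support. With dim probe sets left out the value was 2.35, overexpressed (cut-off 1.66), so the call depends on which probe sets are kept. RARB lies on chromosome 3 (24829321 to 25597932, GRCh38.p14).

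RARG, the RAR known above all from skin and cartilage, was higher in NGP than in IMR-32. Its probe set 204188_s_at had a signal of 409 in NGP and 149 in IMR-32, against 248 in the pool. The probe set 204189_at had 197 in NGP and 50.1 in IMR-32, against 234 in the pool. The third, 217178_at, was dim on all arrays, with 5.15 in NGP and 5.79 in IMR-32, against 24.9 in the pool. NGP over IMR-32 was 1.45 (2.74-fold) as the median, with 1.45 and 1.97 in the probe sets that were not dim and -0.17 in the dim one. This exceeds the standard deviation between probe sets of 1.28 but not the cut-off of 1.95. RARG was overexpressed in NGP over IMR-32 under 2 of 7 other ways of processing, at 1.71 with dim probe sets left out (cut-off 1.66) and at 1.28 with 32 added to each signal (cut-off 1.08). Over the pool the gene value was -0.25 in NGP and -2.11 in IMR-32 (4.30-fold lower). The NGP value over the pool had no firm sign, since it was above 0 under 4 of 7 other ways of processing. RARG lies on chromosome 12 (53210569 to 53232209, GRCh38.p14).

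**Figure D2:**
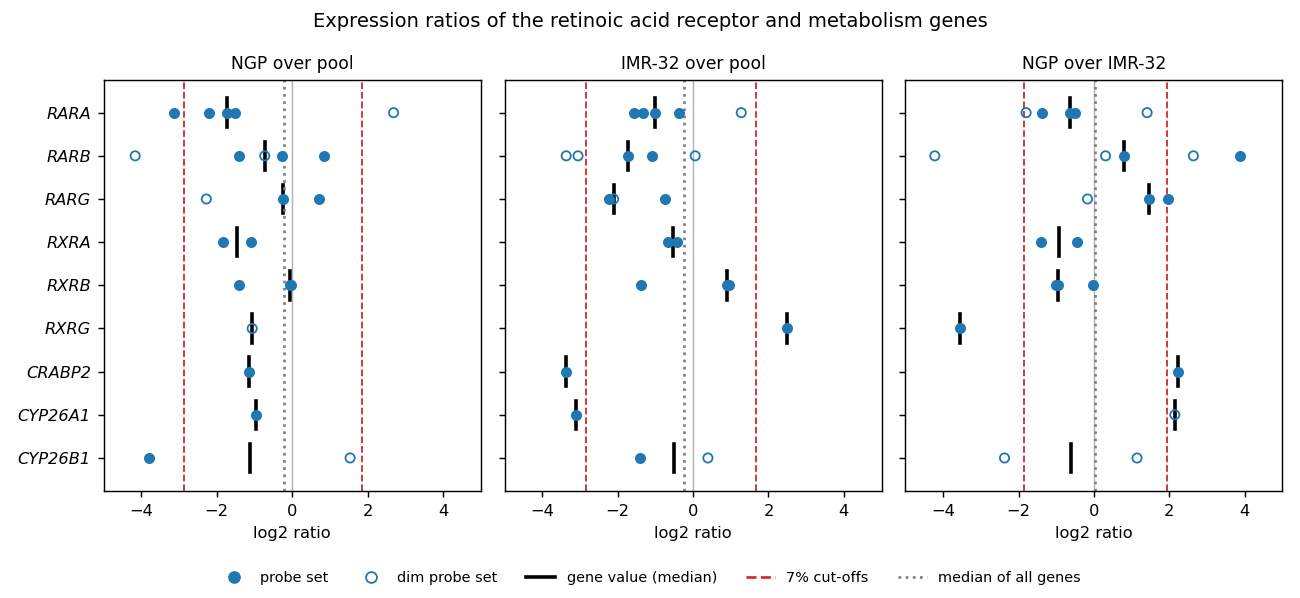
Log2 ratios (x-axis) of each probe set (circles, open where dim) and gene values (black bars, medians over probe sets) of the 9 measured genes (y-axis) in the 3 comparisons, 1 to a panel, with the 7% cut-offs (dashed) and the median of all genes (dotted). In IMR-32 over the pool CRABP2 (-3.38) and CYP26A1 (-3.10) lie below the lower cut-off and RXRG (2.50) above the upper one, and in NGP over IMR-32 the same 3 genes lie past the opposite cut-offs.

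The RXR genes encode the shared partners of the RARs and of several other nuclear receptors. Each of the 3 was lower in NGP than in IMR-32 by its gene value, with ratios of -0.92 for RXRA, -0.94 for RXRB and -3.56 for RXRG. The values of RXRA and RXRB were smaller in size than the standard deviation of 1.28 between probe sets. They were larger than that of probe sets that were not dim (0.86). Among the 3 only RXRG passed the cut-off.

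RXRG, whose expression is largely confined to nervous system and muscle, stood out in IMR-32. Its 1 probe set had a signal of 11.6 in NGP and 137 in IMR-32, against 24.2 in the pool. IMR-32 was the only array on which it was above the array median. The log2 ratio of IMR-32 over the pool was 2.50 (5.64-fold), higher than that of 97.2% of all genes. NGP over IMR-32 was -3.56 (11.8-fold lower), well past the standard deviation between probe sets. The size of both ratios depends on the dim signals, and with 32 added to each signal they were 1.58 and -1.95, still past the cut-offs. NGP over the pool was -1.06 from signals that were dim on both arrays, so no order of NGP and the pool is read from it. RXRG lies on chromosome 1 (165400922 to 165445126, GRCh38.p14).

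RXRA, an RXR found in most tissues, had its brighter probe set, 202449_s_at, at 744 in NGP and 1012 in IMR-32, against 1596 in the pool. The other, 202426_s_at, had 45.2 in NGP and 120 in IMR-32, against 160 in the pool. NGP was lowest and the pool highest in both. The gene value was -1.46 in NGP (2.76-fold lower) and -0.54 in IMR-32 (1.45-fold lower), and no value passed a cut-off.

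RXRB was higher in IMR-32 by 2 of its 3 probe sets. The brightest, 209148_at, had a signal of 793 in NGP and 1588 in IMR-32, against 825 in the pool, and 215099_s_at had 308 in NGP and 592 in IMR-32, against 314 in the pool. NGP and the pool were nearly level in both, with IMR-32 above them. In the third, 215098_at, the lines were level at 95.5 in NGP and 97.0 in IMR-32, against 255 in the pool. The gene value was -0.06 in NGP and 0.91 in IMR-32, and NGP over IMR-32 was -0.94. That is less than the standard deviation between probe sets of 1.28 and more than that of probe sets that were not dim (0.86).

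The enzymes and carriers upstream of the receptors were taken from lists of named genes. Of 20 measured retinol and retinal oxidoreductases (23 listed), 3 were overexpressed and 4 underexpressed in NGP, and 2 and 5 in IMR-32. The list medians were -0.31 in NGP and -0.80 in IMR-32, against -0.22 and -0.23 over all genes. All 3 retinaldehyde dehydrogenases that make retinoic acid were underexpressed in both lines by the 7% cut-offs. ALDH1A1 in IMR-32 and ALDH1A3 in NGP were only just past them. With the bottom 5% (cut-offs -3.35 in NGP and -3.28 in IMR-32), ALDH1A2 and ALDH1A3 in NGP and ALDH1A1 in IMR-32 fall short. ALDH1A1 had a signal of 8.94 in NGP and 59.8 in IMR-32, against 435 in the pool, that is -5.60 on the log2 scale in NGP and -2.86 in IMR-32. ALDH1A2 was at -3.30 in NGP and -5.42 in IMR-32, as the median of 2 probe sets each. ALDH1A3 was at -2.95 in NGP and -5.05 in IMR-32, and its brighter probe set read 444 in NGP and 31.3 in IMR-32, against 10081 in the pool. Its 2 probe sets disagreed, with -4.51 and -1.40 in NGP, -8.33 and -1.76 in IMR-32, and 3.83 and 0.36 in NGP over IMR-32, and the weaker one passed no cut-off and was dim. In NGP over IMR-32, ALDH1A1 was underexpressed (-2.74), while ALDH1A2 (2.12) and ALDH1A3 (2.09) were overexpressed, but the signals of ALDH1A1 and ALDH1A2 were dim in both lines. The epithelial markers were also far lower in both lines than in the pool, and their part in the distance from the pool was not tested. DHRS3, which returns retinal to retinol and is itself induced by retinoic acid, was underexpressed in both lines, at -3.37 in NGP and -4.04 in IMR-32. ADH4, an alcohol dehydrogenase that can act on retinol, was overexpressed at 2.77 in NGP and 1.92 in IMR-32, but its 4 probe sets ran from -0.92 to 4.15 in NGP and from -1.22 to 3.25 in IMR-32, and 1 of them was not dim. ADH1A was the other overexpressed gene in both lines, from dim signals.

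The largest difference between the lines in this list was that of CYP1B1, a cytochrome P450 that acts on steroids, foreign compounds and, in vitro, retinol. Its brightest probe set read 20634 in NGP and 83.4 in IMR-32, against 1304 in the pool. The gene value was 3.98 in NGP and -3.28 in IMR-32. Over the pool the 4 probe sets ran from 3.96 to 7.20 in NGP. In IMR-32 they ran from -3.97 to 1.02, so they did not all go the same way, and 3 of the 4 were not dim. NGP over IMR-32 was 7.25, and all 4 probe sets lay between 6.18 and 7.95.

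Of 14 measured uptake and storage genes (15 listed), 0 were overexpressed in either line, 4 were underexpressed in NGP and 2 in IMR-32, with list medians of -0.98 and -0.67. FABP5, a fatty acid-binding protein that can carry retinoic acid to PPARD, had a signal near the bottom of the range in NGP. Its 1 probe set had a signal of 1.72 in NGP and 24491 in IMR-32, against 11567 in the pool. The ratio was -12.72 in NGP and 1.08 in IMR-32, and a size resting on so dim a signal is not firm. The carriers CRABP2 and FABP5 thus differed between NGP and IMR-32 in opposite directions, CRABP2 being higher in NGP and FABP5 higher in IMR-32. RBP7, a retinol-binding protein of the cell, was underexpressed in both lines (-3.64 in NGP and -3.86 in IMR-32). Calls from dim signals were those of BCO1 in NGP and LRAT in IMR-32. DGAT1, which can esterify retinol, was at -2.96 in NGP, past the cut-off, and -2.68 in IMR-32, short of it. STRA6, the membrane receptor for retinol-binding protein, was at 1.40 in NGP and -0.39 in IMR-32, between the cut-offs, and is named here after its values were seen. RBP4, the retinol carrier of blood plasma, was underexpressed in NGP relative to IMR-32 (-1.95), and RBP5 was overexpressed (2.11).

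**Figure D3:**
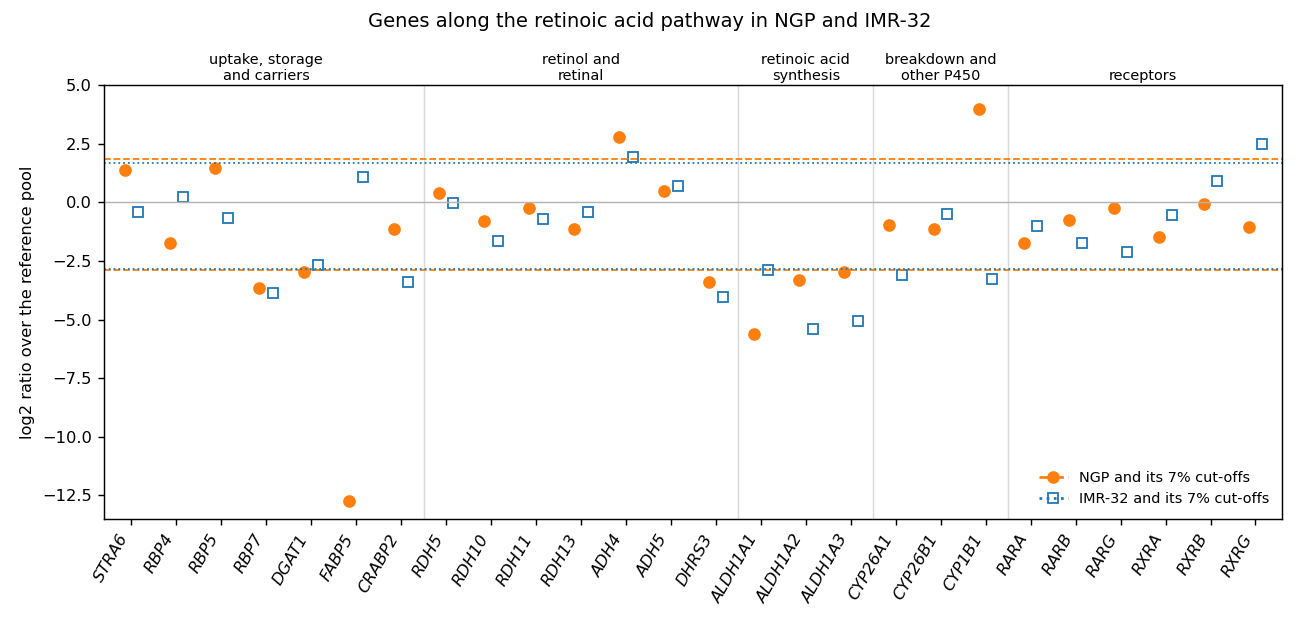
Log2 ratio to the pool (y-axis) of a selection of the pathway genes (x-axis, ordered by step) in NGP (filled circles) and IMR-32 (open squares), with the 7% cut-offs of each line as horizontal lines. ALDH1A1, ALDH1A2, ALDH1A3 and DHRS3 lie below the cut-offs in both lines, ALDH1A1 in IMR-32 (-2.86) and ALDH1A3 in NGP (-2.95) only just. FABP5 lies at -12.72 in NGP and 1.08 in IMR-32, and CYP1B1 lies at 3.98 in NGP and -3.28 in IMR-32.

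Of 15 measured corepressors and coactivators of the receptors (18 listed), 13 lay between the cut-offs in each line, and 15 of 15 did so in NGP over IMR-32. The list medians were 0.01 in NGP and 0.26 in IMR-32. The exceptions were the same in both lines. ZNF423, a zinc finger protein that binds the RAR-RXR heterodimer and is needed for the retinoic acid response of neuroblastoma cells, had a signal of 915 in NGP and 1820 in IMR-32, against 126 in the pool. It was overexpressed at 2.86 in NGP and 3.85 in IMR-32. PRAME, a tumour antigen that represses RAR signalling, had 71.4 in NGP and 142 in IMR-32, against 1473 in the pool. It was underexpressed at -4.37 in NGP and -3.38 in IMR-32. Both genes have 1 probe set, and both were about 1 log2 unit lower in NGP than in IMR-32 (-0.99 for each). In size this is within the standard deviation between all probe sets (1.28) and more than that of probe sets that were not dim (0.86).

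Among 14 measured nuclear receptors that pair with RXR or compete for its sites (18 listed), 1 was overexpressed and 3 were underexpressed in each line, and 0 passed a cut-off in NGP over IMR-32. The list medians were -0.52 in NGP and -0.82 in IMR-32. NR2C1, the orphan receptor TR2, was overexpressed at 3.73 in NGP and 3.26 in IMR-32 by its gene value. All 4 probe sets were above 0 and not dim in both lines. Their ratios ran from 0.32 to 5.40 in NGP and from 1.07 to 5.45 in IMR-32. The brightest probe set read 977 in NGP and 1650 in IMR-32, against 785 in the pool. It gave the lowest ratio in each line, short of the cut-off, so the call rests on the less bright probe sets. PPARG, the receptor of fat cell differentiation, was underexpressed at -4.17 in NGP and -3.48 in IMR-32, and VDR, the vitamin D receptor, at -4.21 in NGP and -3.16 in IMR-32. The third was NR2F1 (COUP-TFI) in NGP, at -3.31, with -2.80 in IMR-32, and the thyroid hormone receptor THRB in IMR-32, at -2.90 with probe sets from -3.43 to 0.62, and at -1.12 in NGP. The brightest THRB probe set read 122 in IMR-32, against 79.3 in the pool. It ran opposite to the IMR-32 call, which was only just past the cut-off of -2.83.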

How the data were processed

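The authors hybridized mRNA of NGP, IMR-32 and the reference pool to Affymetrix U133 Plus 2.0 arrays and computed the deposited signal intensities by MAS5 in affy, a Bioconductor package (version not given in the sources used here). The 2% trimmed mean over the 54675 signals came to 500 on every array. The 62 control probe sets were left out, as were 1801 probe sets that name several genes and 11721 that name none. Of the other 41091, 41037 were matched to RefSeq by gene ID and took its symbols, and the rest kept theirs. Log2 ratios over the pool and 7% cut-offs followed the study's methods. Gene values (medians of probe set ratios) and NGP over IMR-32 were added here. The members and gene lists were chosen with earlier results of these data known. Genes named from the lists were taken from up to 4 per comparison with the largest ratios past a cut-off that were not dim. Genes of a count of 5 or fewer were also taken. Not every such gene is named, as with PCK1 among the retinoic acid targets and most cell type markers. The 3 nearest genes were named for likeness. There are no replicates, so no test was run, and the number of arrays limits the precision. The steps were tested on simulated data with less spread between probe sets than these data, so only the working of the steps was checked. The 10 alternatives are given at the end. The software was Python 3.11.15 with pandas 2.3.3, numpy 2.4.6, matplotlib 3.10.9 and SciPy 1.17.1. Copy-number arrays of the study were not analysed here.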

Additional observations from a re-analysis of the deposited data

Results flagged for a closer look

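RXRG and RXRB had ratios of opposite sign in NGP and IMR-32 over the pool, and with 1 array per sample this difference was not tested. RXRG was at -1.06 in NGP, from dim signals, and 2.50 in IMR-32. RXRB was at -0.058 in NGP and 0.91 in IMR-32. The sign of RXRB was not firm. Its NGP value was 0.29 with each array divided by its median, and its IMR-32 value was -0.22 with _s_at and _x_at probe sets left out.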

How the results depend on the processing

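The underexpression of CRABP2 in IMR-32 and its overexpression in NGP over IMR-32, and the RXRG calls in both comparisons, held under all 7 other ways of processing the signals. For IMR-32 over the pool, the number of underexpressed genes was 1 in place of 2 with dim probe sets left out and with the top and bottom 5%, since CYP26A1 (-3.10) did not reach the stricter cut-offs of -3.14 and -3.28. For NGP over the pool, 1 gene in place of 0 was underexpressed, CYP26B1 (-3.79), with dim probe sets left out, with the brightest probe set per gene and with _s_at and _x_at probe sets left out, since each keeps only 219825_at. The last of these also made 1 gene in place of 0 overexpressed, RARA (2.69), from 1 dim probe set. For NGP over IMR-32, 2 genes in place of 1 were underexpressed with the brightest probe set and with _s_at and _x_at probe sets left out. CYP26B1 was added (-2.37), from a probe set that was dim in both lines. The number overexpressed was 1 in place of 2 with cut-offs over all probe sets (2.20), and 0 with the top and bottom 5% (cut-off 2.29, against 2.24 for CRABP2). The other 50 of the 60 counts stayed within 1.5 times their value, but not always with the same genes. For NGP over IMR-32 the overexpressed genes were 3 with dim probe sets left out (RARB, RARG and CRABP2, with CYP26A1 not measured) and 3 with 32 added to the signals (RARG, CRABP2 and CYP26A1). No paired analysis was possible because each sample has 1 array, and none could be left out. Signals below the array median, such as all but 1 for RXRG and all but 1 for CYP26A1, limit the size of the ratios.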

Other observations

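Genes that retinoic acid is known to induce in other cells gave a mixed picture in these untreated lines. Of 29 measured (35 listed, with RARB, CRABP2, CYP26A1 and CYP26B1 among them), 4 were overexpressed and 7 underexpressed in NGP, and 2 and 7 in IMR-32. The list medians were -1.14 in NGP and -0.57 in IMR-32, against -0.22 and -0.23 over all genes. RET, the GDNF family receptor kinase that retinoic acid induces in neuroblastoma cells, was overexpressed in NGP (2.27) and at -2.60 in IMR-32. NGP over IMR-32 was 4.86 for RET, with all 3 probe sets between 4.33 and 7.76. MEIS2, a homeobox factor, had a signal of 13074 in NGP and 1209 in IMR-32, against 1218 in the pool, and was overexpressed in NGP (3.42) and level with the pool in IMR-32 (-0.01). MEIS1 was at 1.92 in NGP and 3.17 in IMR-32, overexpressed in both. The paper reports high-level amplification of the MEIS1 locus in IMR-32, and the part of copy number in these values was not tested. HOXB1 was the other overexpressed gene in NGP, from dim signals.

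Several other targets were underexpressed in both lines. FOXA1, a forkhead factor of endodermal and breast epithelium, was at -5.95 in NGP and -7.36 in IMR-32. The membrane protein gene GPRC5A was at -4.13 in NGP and -4.15 in IMR-32, and the adhesion molecule gene ICAM1 was at -3.04 in NGP and -3.40 in IMR-32. The epithelial markers of the pool moved the same way, at a median of -6.64 in NGP and -7.03 in IMR-32 over 10 genes, and their part was not tested. HOXB4 was underexpressed in NGP (-4.34) and at -0.60 in IMR-32, and RARRES2, which encodes the chemoattractant chemerin, was at -4.99 in NGP and -1.96 in IMR-32. RAI14 was overexpressed in IMR-32 (1.91) and at -1.33 in NGP, with NGP over IMR-32 at -3.24.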
